A study of Mus with 2 samples.

Results

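A group of 6 genes of arginine metabolism were followed across a pair of mouse tumor sections: Arg1, Nos2, Arg2, Slc7a2, Ass1 and Odc1, out of the 32285 genes in the count matrices. They were matched by symbol and all 6 were found. They were chosen by their UMIs in each section, at each distance from the tissue outline and in the spots where Arg1 and Nos2 overlap, as already known in these libraries, so the values on those measures are a description and carry no test. The tumors were CT26, a colon carcinoma line grown under the skin of balb/c mice aged 6-8 weeks, the strain from which the line derives. The rIL7 tumor came from a mouse given 10 µg of recombinant mouse IL-7 into the peritoneum on days 11 and 13 after transplantation, the control tumor from a mouse given PBS, and both were taken on day 15. RNA was measured by Visium, in which a frozen section of 10 µm lies on a grid of barcoded spots and each captured molecule is counted once by a random tag, its unique molecular identifier (UMI). Spots are larger than cells, so 1 spot can mix transcripts of several cell types.

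Arginine is shared between enzymes that make different products. Arg1, the cytosolic arginase, and Arg2, the mitochondrial arginase, split it into ornithine and urea, whereas Nos2, the inducible nitric oxide synthase, turns it into nitric oxide and citrulline. Slc7a2 is a transporter that brings cationic amino acids such as arginine into cells, Ass1 is the enzyme that starts the rebuilding of arginine from citrulline, and Odc1, ornithine decarboxylase, opens the route from ornithine to polyamines. In mouse macrophages, Nos2 is a familiar readout of activation by interferon gamma and microbial products, and Arg1 of activation by interleukin 4 and interleukin 13, while Arg1 is also found in other myeloid cells of tumors.

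Each group held 1 section and therefore 1 library, so no p-value is given, the sections cannot be told apart from the treatments, and every interval covers counting error only. After filtering, 2219 control spots held 22951678 UMIs with a median of 9623 per spot, and 1950 rIL7 spots held 25729233 UMIs with a median of 12921.5. Levels are UMIs per 1000000 UMIs (CPM), which corrects for the total but does not set different genes on 1 scale. To show the spread inside a section, its spots were divided at the median row and the median column into 4 quadrants, which are not replicates. The CT26 tumor markers Rpl39l and Baiap2l1 were present in both sections, at a summed 1293 (control) and 1043 CPM (rIL7). In a spot, fewer cells of a type and less RNA per cell cannot be told apart.

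Both arginine-consuming enzymes that mark macrophage states were higher in the rIL7 section, and by similar factors. Arg1 (ENSMUSG00000019987, chromosome 10, 24915207 to 24927470, GRCm38) had 285 control and 2204 rIL7 UMIs. Its level was 12.4 CPM (11.0 to 13.9) and 85.7 CPM (82.1 to 89.3), a ratio of 6.90 (6.10 to 7.83). The control quadrants stood at 14.2, 13.7, 9.26 and 10.6 CPM and the rIL7 quadrants at 77.5, 70.2, 84.8 and 109.8 CPM. Every rIL7 quadrant thus lay several times above every control quadrant. Nos2 (ENSMUSG00000020826, chromosome 11, 78920787 to 78960226) had 18 control and 183 rIL7 UMIs, or 0.784 CPM (0.465 to 1.24) and 7.11 CPM (6.12 to 8.22). The ratio of Nos2 was 9.07 (5.58 to 15.6). Its quadrants were apart as well, at 0.572 to 1.095 CPM (control) and 4.65 to 8.49 CPM (rIL7). The intervals of the Arg1 and Nos2 ratios overlapped, so the larger point value of Nos2 was not separable from that of Arg1 at this depth.

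The other 4 genes were also higher in rIL7, with ratios that ran from small to large. Arg2 (ENSMUSG00000021125, chromosome 12, 79130788 to 79156301) had 129 and 282 UMIs, or 5.62 CPM (4.69 to 6.68) and 10.96 CPM (9.72 to 12.3), a ratio of 1.95 (1.58 to 2.42). The Arg2 quadrants ranged from 3.70 to 7.47 CPM in the control and from 8.77 to 13.0 CPM in rIL7. Slc7a2 (ENSMUSG00000031596, chromosome 8, 40862341 to 40922070) had 8 and 75 UMIs, or 0.349 CPM (0.150 to 0.687) and 2.91 CPM (2.29 to 3.65). With so few control UMIs its ratio of 8.36 ranged from 4.03 to 20.1. Ass1 (ENSMUSG00000076441, chromosome 2, 31470270 to 31520670) had 287 and 590 UMIs, or 12.5 CPM (11.1 to 14.0) and 22.9 CPM (21.1 to 24.9), a ratio of 1.83 (1.59 to 2.12). The Ass1 quadrants ranged from 10.8 to 14.0 CPM and from 20.7 to 25.5 CPM. Odc1 (ENSMUSG00000011179, chromosome 12, 17544808 to 17551502) had 10941 and 14313 UMIs, or 477 CPM (468 to 486) and 556 CPM (547 to 565). Its ratio was 1.17 (1.14 to 1.20), and the highest control quadrant, at 547.4 CPM, nearly touched the lowest rIL7 quadrant, at 547.9 CPM.

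Against all genes with at least 100 UMIs over both sections, 12046 in number, Nos2 ranked 13th and Arg1 19th by ratio, Arg2 289th, Ass1 335th and Odc1 2039th. Slc7a2 had too few UMIs to be ranked, and Nos2 reached the minimum through its rIL7 UMIs. All 5 members that reached it were higher in rIL7, as 49.4% of such genes were. Of these 5, 2 were at least 2-fold higher, where 2.27% of all such genes were (0.772% were as much lower), and 4 were at least 1.5-fold higher with an interval above 1, where 4.79% were. Quadrants lay apart and higher in rIL7 for 6 of 6 members and for 10.2% of the genes with at least 100 UMIs. These shares are given for scale, since the members were chosen with this contrast in view. Among sparse genes of 50 to 500 UMIs, 7.73% were at least 2-fold higher and 3.42% as much lower, which is the nearer background for Nos2 and Slc7a2.

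**Figure D1:**
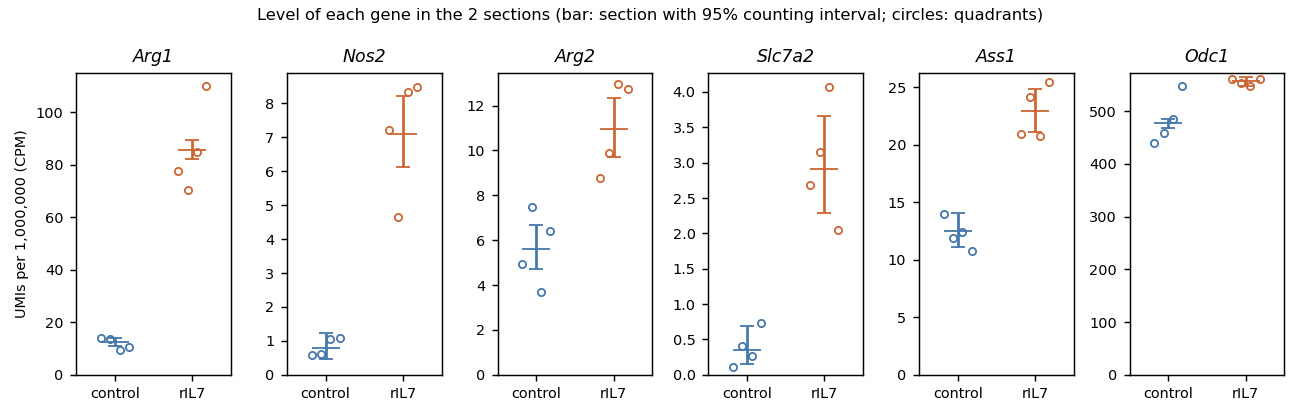
Level of each of the 6 genes in CPM, from 0, in the control and rIL7 sections. Horizontal bars are section values with 95% counting intervals and circles are the 4 quadrants; the circles of the sections do not overlap for any gene, and for Odc1 they nearly touch.

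Markers of macrophages and neutrophils, cells in which these enzymes are known, were read beside the members. The macrophage list was 1.23-fold higher in rIL7 by its summed UMIs (1.22 to 1.24), from 4890 to 6029 CPM. Its quadrants overlapped, at 3486 to 6219 CPM and 4413 to 7532 CPM. Of its 10 genes, all detected, 8 were higher and 0 reached 1.5-fold. Lyz2 (1.49-fold) and Apoe (1.28-fold) had the most UMIs and weighed most in the sum. Csf1r, at 0.939 (0.899 to 0.982), and Adgre1, at 0.775 (0.709 to 0.847), were lower. The neutrophil list was 1.93-fold higher (1.87 to 1.99), from 234 to 451 CPM, also with overlapping quadrants, at 136 to 391 CPM and 303 to 569 CPM. Per 1000 UMIs of the macrophage list, Arg1 stood at 2.54 (control) and 14.2 (rIL7), which is 5.60-fold (4.94 to 6.35), and Nos2 at 0.160 and 1.18, a ratio of 7.36 (4.53 to 12.7). Per 1000 UMIs of the neutrophil list the ratio was 3.58 (3.16 to 4.06) for Arg1 and 4.70 (2.89 to 8.11) for Nos2. Set against the same list, Arg2 had a ratio of 1.01 (0.818 to 1.25) and Ass1 one of 0.950 (0.824 to 1.098). Which cells held the transcripts was not tested.

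The number of spots with a transcript, and not only the load per spot, differed between the sections. Arg1 was found in 246 of 2219 control spots (11.1%, 9.81 to 12.5) and in 1009 of 1950 rIL7 spots (51.7%, 49.5 to 54.0). With every spot brought down to 5900 UMIs, which leaves out 217 control and 81 rIL7 spots, the expected shares were 6.58% and 32.2%. No control spot held more than 4 Arg1 UMIs. In rIL7, by contrast, 87 spots held 5 or more and together 685 of the UMIs, and the richest held 25. Nos2 was found in 18 control spots, 1 UMI in each, and in 147 rIL7 spots (7.54%, 6.41 to 8.80), of which 25 held at least 2 UMIs. At the common depth its shares were 0.409% and 3.68%. Arg2 occupied 125 and 242 spots, Slc7a2 8 and 74, and Ass1 262 and 478. Odc1 was found nearly everywhere, in 97.48% and 97.79% of spots.

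**Figure D2:**
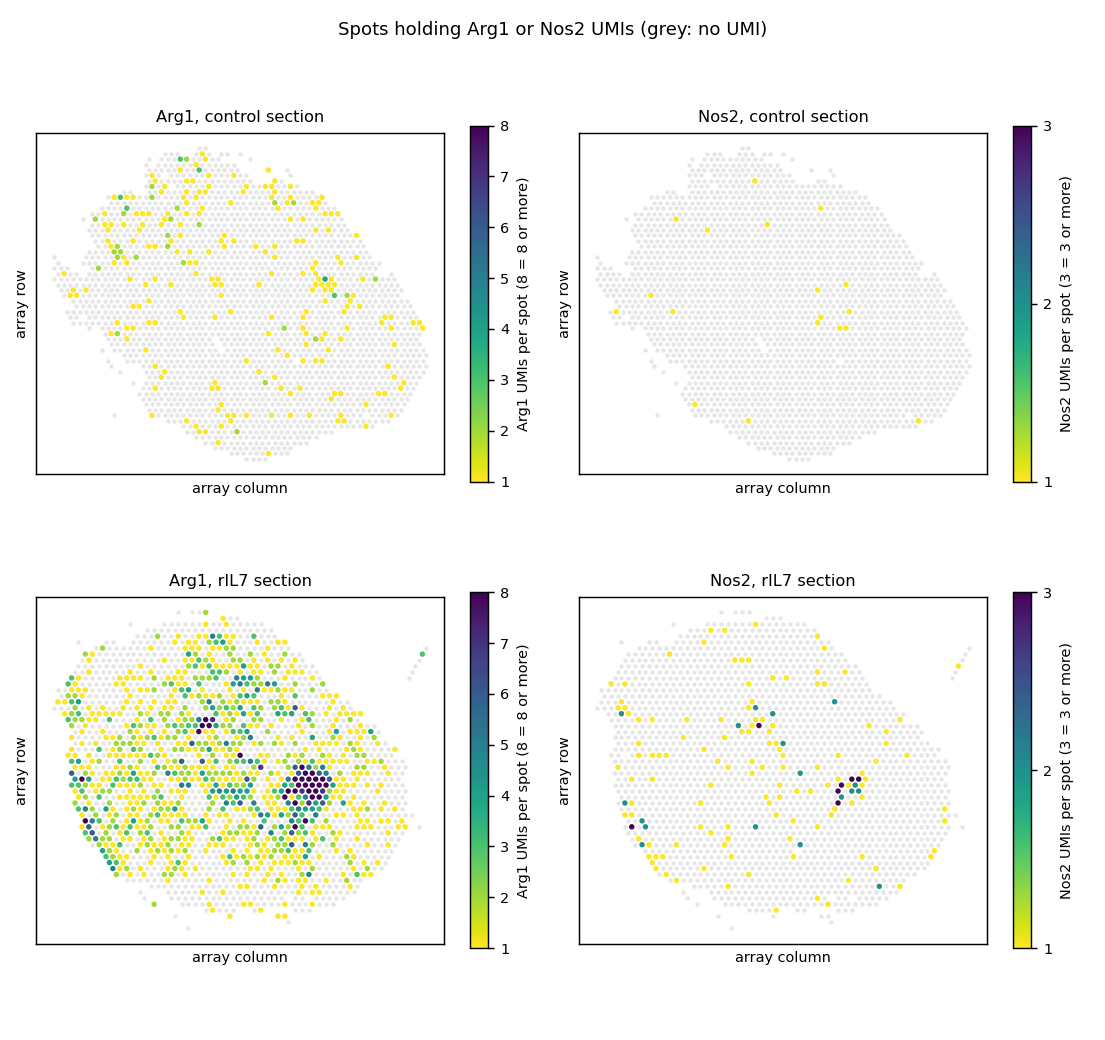
Spots of the control (top) and rIL7 (bottom) sections placed by array column and row, colored by UMIs of Arg1 (left, 8 standing for 8 or more) or Nos2 (right, 3 standing for 3 or more), with grey spots holding none. In the rIL7 section a compact group of spots rich in Arg1 also holds several spots with 2 or more Nos2 UMIs, and in the control section no spot holds more than 4 Arg1 UMIs or more than 1 of Nos2.

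Within the rIL7 section the Arg1-rich spots were clustered. Of the 87 spots with 5 or more UMIs, 55 (63.2%) adjoined another such spot, and they fell into 37 groups, of which 32 were single spots and the largest held 40. That group, 2.05% of the spots, lay 10 to 17 grid steps from the outline and held 396 Arg1 UMIs, 17.97% of those of the section. Its definition fixes its high Arg1. Nos2 is not in that definition, but the overlap of Arg1 and Nos2 was known when the genes were chosen, so its value is a description. Nos2 reached 30 UMIs there, or 34.6 CPM against 6.15 CPM in the rest of the section, a ratio of 5.63 (3.67 to 8.37). Of its 40 spots, 15 held Nos2. Arg2 stood there at 27.7 against 10.4 CPM (2.67-fold, 1.68 to 4.06) and Odc1 at 773 against 549 CPM (1.41-fold, 1.30 to 1.52). For Ass1, at 25.4 against 22.8 CPM, the ratio of 1.11 ran from 0.691 to 1.70. The group also held more of the neutrophil list, at 1299 against 421 CPM, and of the macrophage list, at 8566 against 5940 CPM, and less of the monocyte list, at 601 against 1101 CPM, and of the T cell list, at 48.5 against 153 CPM. Their part in the levels of Arg1 and Nos2 was not tested. Its median depth was 21132 UMIs per spot. Without these spots the section ratio was 5.86 (5.17 to 6.66) for Arg1 and 7.85 (4.80 to 13.6) for Nos2.

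The members did not share 1 course over the distance from the tissue outline in the rIL7 section. Arg1 stood at 61.2 CPM in the outermost step, at 44.4 CPM in steps 3 and 4, and at 135.8 CPM from step 12 inward. Its edge, the outer 2 steps, had 56.6 CPM and its interior 91.2 CPM, an edge over interior ratio of 0.620 (0.537 to 0.713). Odc1, the enzyme that uses the ornithine made by arginase, went the same way, from 394 CPM in the first step and 362 CPM in the next to 678 CPM from step 12 inward, with a ratio of 0.637 (0.603 to 0.672). Nos2 was high at both ends of the course, with 11.0 CPM in the first step, 3.49 CPM in steps 8 to 11 and 10.5 CPM from step 12 inward. Its edge stood at 9.43 CPM and its interior at 6.70 CPM, and the ratio of 1.41 (0.953 to 2.03) included 1. From step 12 inward there were 84 Nos2 and 1082 Arg1 UMIs. The group of 40 Arg1-rich spots, at steps 10 to 17, held 30 Nos2 and 396 Arg1 UMIs. The courses were not read without that group. Arg2 had 23.7 CPM in the first step, 6.50 CPM in steps 5 to 7 and 11.7 CPM from step 12 inward. Its edge over interior ratio of 2.05 (1.56 to 2.69) lay on the other side of 1 from that of Arg1, although both genes were higher from step 12 inward than in steps 5 to 7. Slc7a2 gave 1.52 (0.816 to 2.68) and Ass1 1.20 (0.965 to 1.49), neither separable from an even level.

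The control section showed no such course for Arg1, which stayed between 10.8 and 14.5 CPM in every band of steps, with an edge over interior ratio of 1.102 (0.814 to 1.47). Odc1 stood at 453 CPM in the first step and 528 CPM from step 12 inward, with a ratio of 0.963 (0.918 to 1.01). Arg2 tended to the inside, with 4.46 CPM in the first step and 8.77 CPM from step 12 inward, although its ratio of 0.755 ran from 0.444 to 1.22. Ass1 was the 1 member whose control interval left out 1, at 17.4 CPM in the first step and 10.2 CPM from step 12 inward, a ratio of 1.45 (1.103 to 1.90). Nos2 and Slc7a2 had 3 edge UMIs each in the control, giving 0.823 (0.153 to 2.91) and 2.47 (0.383 to 12.7). Edge over interior ratios of at least 1.5 with an interval above 1 were met by 8.93% of genes in rIL7 and 1.43% in the control, and ratios as far below 1 by 6.23% and 2.51%. In rIL7, 1 member, Arg2, met the first and 2, Arg1 and Odc1, the second. No control member met either.

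Compared area by area, every member but Odc1 was higher in rIL7 both at the edge and in the interior. Shares over all genes were not computed by area, and the members were chosen with such values known, so this is a description. Arg1 was 4.22-fold (3.16 to 5.71) higher at the edge and 7.49-fold (6.52 to 8.64) in the interior. Arg2 showed the reverse order, with 4.33-fold (2.62 to 7.48) at the edge and 1.59-fold (1.25 to 2.03) in the interior. Nos2 was 8.22-fold (4.82 to 15.1) higher in the interior, and its edge ratio of 14.1 (4.45 to 71.2) rested on 3 control UMIs. Odc1 changed sides, at 0.814 (0.761 to 0.871) at the edge and 1.23 (1.20 to 1.27) in the interior, so its section ratio above 1 came from the interior. In rIL7 the macrophage list had 11512 CPM in the first step and 5004 CPM from step 12 inward, the T cell list at 443 and 73.9 CPM, and the hypoxia list at 3010 and 4288 CPM. Median depth was 9489.5 UMIs in the first step and 15552.5 from step 12 inward. The part of these differences in the courses of the members was not tested.

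**Figure D3:**
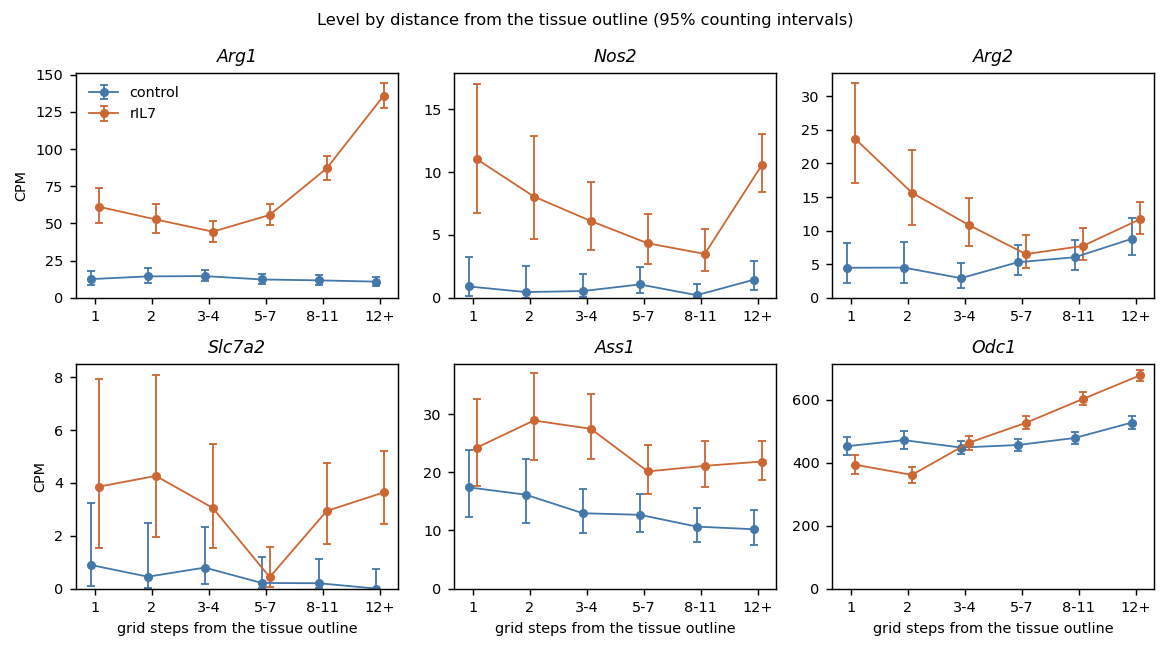
CPM of each gene, from 0, by grid steps from the tissue outline (1 is the outermost), in the control and rIL7 sections, with 95% counting intervals. In rIL7, Arg1 and Odc1 are highest from step 12 inward, Arg2 is highest in the first step, and Nos2 is high at both ends.

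The overlap of Arg1 and Nos2 was read spot by spot. In rIL7, 98 of the 147 Nos2 spots also held Arg1 (66.7%, 58.4 to 74.2), where 51.7% of all spots did, and these were 9.71% (7.96 to 11.7) of the Arg1 spots. Deeper spots more often hold any gene, and at 5900 UMIs the expected share of Nos2 spots with Arg1 was 42.2% (30.4 to 54.7), beside 32.2% of all spots, a value within that interval. The interval takes expected spot numbers as if observed, so it does not settle whether these shares differ. In the control, 3 of 18 Nos2 spots held Arg1 (16.7%, 3.58 to 41.4), beside 11.1% of all spots. The overlap was greater among Arg1-rich spots, since 25 of the 87 spots with 5 or more Arg1 UMIs held Nos2 (28.7%, 19.5 to 39.4), beside 7.54% of all spots. The level of Nos2, which corrects for depth, was 5.40-fold (3.53 to 8.20) higher in these spots than in spots without Arg1. The single group of 40 Arg1-rich spots held 15 of the 25 spots, and 30 of the 44 Nos2 UMIs behind that ratio. The overlap in Arg1-rich spots was not read without that group. In spots with at least 15000 UMIs, where the median depths were 20082 and 17123, Nos2 stood at 27.1 CPM in 75 Arg1-rich spots and 3.98 CPM in 212 spots without Arg1, a ratio of 6.81 (3.70 to 13.2). Of the 147 Nos2 spots, 25 (17.0%, 11.3 to 24.1) held 5 or more Arg1 UMIs, where 4.46% of all spots did. The other 122 (83.0%) held fewer than 5, as most spots of the section did.

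Arg1 was also higher next to Nos2, with the spot at the center left out. In rIL7 the spots adjoining a Nos2 spot had 165 CPM of Arg1, and those adjoining a spot without Nos2 had 79.1 CPM. In the control the values were 13.3 and 12.5 CPM, the first from 14 UMIs, repeats included. A spot was counted once for each center it adjoined, so it could enter both values and could hold Nos2 itself. The group of 40 Arg1-rich spots, 15 of them with Nos2, was counted this way too. No interval was computed, and the values were not read without that group. At 5900 UMIs, 85.1% (74.5 to 92.5) of rIL7 Nos2 spots had Arg1 in the spot or next to it, and so had 83.4% of all spots, so a radius of 1 step did not set them apart. The level of a gene next to spots that held it was read in the same way in rIL7. Neighbors of spots with Arg1 had 110.0 CPM of Arg1 and neighbors of spots without it 55.8 CPM, and for Nos2 the values were 16.2 and 6.21 CPM. Neighbors of Arg2 spots had 16.4 CPM of Arg2 against 9.80 CPM. For Ass1 the values were 22.2 and 23.1 CPM, so its level was not higher next to spots that held it. In the control, Arg1 stood at 18.4 and 11.7 CPM.

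Other transcripts in the Arg1-rich spots of rIL7 differed by list. Compared with the spots without Arg1, the spots with 5 or more UMIs had 1.99 times the level of the hypoxia list (1.95 to 2.04), which includes Ldha and Pgk1 of glycolysis and the mitophagy gene Bnip3. They had 2.48 times the neutrophil list (2.34 to 2.63) and 1.47 times the alternative activation list (1.35 to 1.60). The macrophage list was 1.07-fold (1.054 to 1.096) higher, whereas the T cell list was at 0.331 (0.270 to 0.400), the NK cell list at 0.540 (0.450 to 0.644) and the fibroblast list at 0.683 (0.657 to 0.710). Arg2 was 2.22-fold (1.51 to 3.21) and Odc1 1.30-fold (1.22 to 1.39) higher, and for Ass1, at 0.762, the interval of 0.511 to 1.101 included 1. The classes had median depths of 19389 and 11412 UMIs. Of the Arg1-rich spots, 72.4% lay at step 12 or further inward, as did 25.9% of all spots. In the interior alone, the T cell list was at 0.482 (0.385 to 0.596) in Arg1-rich spots. The NK cell list was at 0.553 (0.454 to 0.669) there, and the fibroblast list at 0.729 (0.698 to 0.761). The part of position in these ratios was not tested. The macrophage list varied with the class and the area. Spots with any Arg1 had 0.864 times its level in spots without (0.856 to 0.873), and 0.991 times (0.980 to 1.003) in the interior. In the interior the spots with 5 or more Arg1 UMIs had 1.35 times its level (1.32 to 1.38). The group of 40 Arg1-rich spots, all interior, held 7417 of the 10851 macrophage list UMIs behind that value. Of the 1610 neutrophil list UMIs of all Arg1-rich spots, that group held 1125. The lists were not read in Arg1-rich spots outside it.

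Spots with Nos2 in rIL7 shared part of that profile. Against spots without Nos2 they had 2.25 times the Arg1 level (2.01 to 2.51), 2.10 times the Arg2 level (1.51 to 2.88), 1.66 times the neutrophil list (1.58 to 1.75) and 1.52 times the hypoxia list (1.49 to 1.55). Odc1, at 0.987 (0.930 to 1.05), was not separable from an even level. The T cell list was at 0.959 (0.854 to 1.07) over all spots, and at 0.753 (0.633 to 0.889) in the interior alone. The classical activation list, which includes Il1b and Cxcl9, was 1.18-fold (1.12 to 1.23) higher in Nos2 spots and at 0.895 (0.843 to 0.950) in Arg1-rich spots. In the interior alone the direction in Arg1-rich spots turned, to 1.101 (1.03 to 1.17). The list of inducers of Nos2, which includes Ifng and Irf1, was at 0.921 (0.877 to 0.966) in Nos2 spots and at 0.758 (0.713 to 0.804) in Arg1-rich spots.

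**Figure D4:**
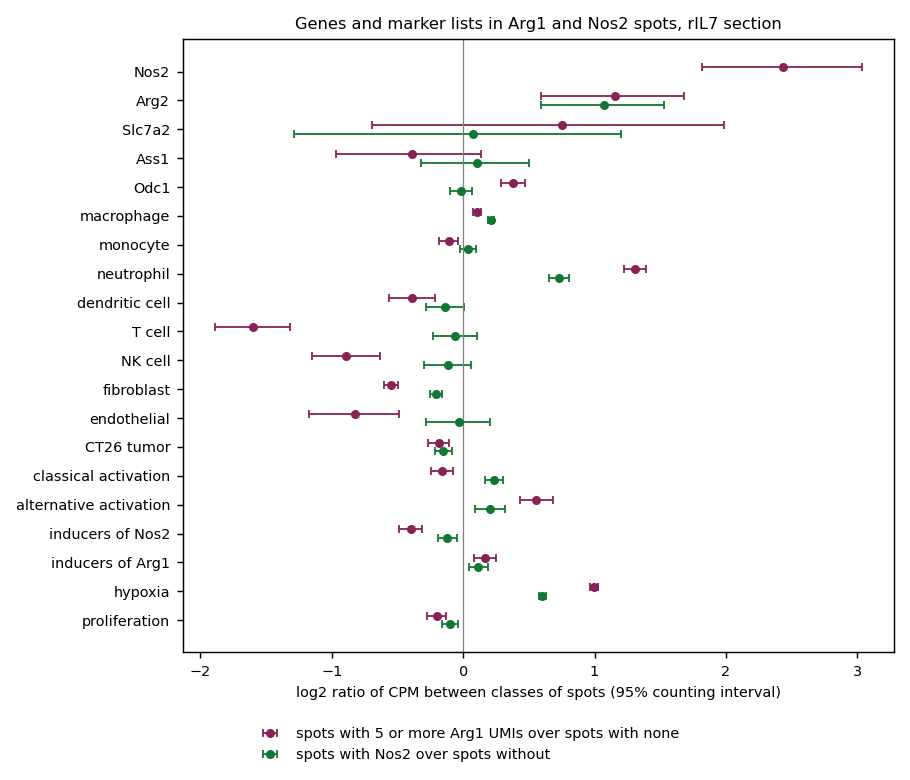
Log2 ratio of the CPM of each member or gene list between classes of spots of the rIL7 section, with 95% counting intervals, for spots with 5 or more Arg1 UMIs over spots with none and for spots with Nos2 over spots without. Nos2, Arg2, neutrophil and hypoxia transcripts lie right of 0 for Arg1-rich spots and T cell transcripts left of it.

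For patterns across the tissue, spots were pooled into tiles of 8 array rows by 16 array columns with at least 20 spots, 33 in rIL7 and 38 in the control. Tiles of 1 section share a library, a depth gradient and the layout of the tumor, so Spearman's rho is given as a description. Arg1 ranged from 12.1 to 271 CPM over the rIL7 tiles, with a median of 60.2, and from 2.10 to 38.0 CPM over the control tiles, with a median of 10.9. Among 7618 genes with at least 20 CPM in rIL7, Odc1 had the fourth highest rho with Arg1, at 0.80, where the central 95% of genes ran from -0.63 to 0.58. With edge spots left out, a step added after seeing the data, rho was 0.77 over 28 tiles. In the control the same pair had a rho of 0.04. UMIs per spot had a rho of 0.62 with Arg1 and 0.44 with Odc1 over the rIL7 tiles. Odc1 also had a rho of -0.88 with the T cell list, -0.68 with the macrophage list and 0.61 with the CT26 tumor list there. In the control its rho was -0.42, -0.76 and -0.02 with the same lists. The part of depth and of these lists in the rho of Arg1 with Odc1 was not tested. Arg1 had a rho of 0.41 with Nos2 and -0.12 with Arg2 in rIL7.

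The genes most like Arg1 over the rIL7 tiles were Rtn4, a protein that shapes the endoplasmic reticulum (0.83), Lgals3, the lectin galectin-3 (0.83), the matrix metalloproteinase Mmp10 (0.81), Odc1, Hilpda, a lipid droplet protein induced by hypoxia (0.80), Grem1, an antagonist of bone morphogenetic proteins (0.79), Fstl3, a binder of activins (0.78), the macrophage metalloelastase Mmp12 (0.77), Vat1 (0.77) and Sccpdh (0.77). Of these, Mmp12 also differed between sections, at 39.8 and 142.9 CPM, a ratio of 3.59. The other 9 had ratios between 0.910 and 1.38. The genes most opposed to Arg1 were Psmb10 (-0.84), a subunit of the immunoproteasome, Pld4 (-0.81), Tap1 (-0.81) and Tapbp (-0.81), which load peptides on class I molecules, and the class I gene H2-K1 (-0.79), whose counts can be shared with close family members. Among the lists, hypoxia had a rho of 0.72 with Arg1, T cell one of -0.78 and macrophage one of -0.49. With edge spots left out, that of macrophage was -0.27.

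Tiles of the control held a median of 5 Arg1 UMIs, and the highest values of rho there, for Gm1673 (0.57), Mif (0.51), Psma7 (0.50), Zfp12 (0.49) and Id2 (0.49), rest on those few counts. The hypoxia list had a rho of 0.40 with Arg1 in the control and the T cell list one of -0.03. For Nos2, whose rIL7 tiles also held a median of 5 UMIs, the highest were Il33 (0.61), an alarmin cytokine, Ackr3 (0.61), a chemokine scavenger receptor, Tmem65 (0.60), Ddit4 (0.60), a stress-induced inhibitor of mTORC1, and Tagln2 (0.59). Over 60 smaller tiles these values were lower, from 0.04 for Tmem65 to 0.43 for Ackr3. Il33 was also 4.63-fold higher in rIL7, at 7.10 and 32.9 CPM.

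**Figure D5:**
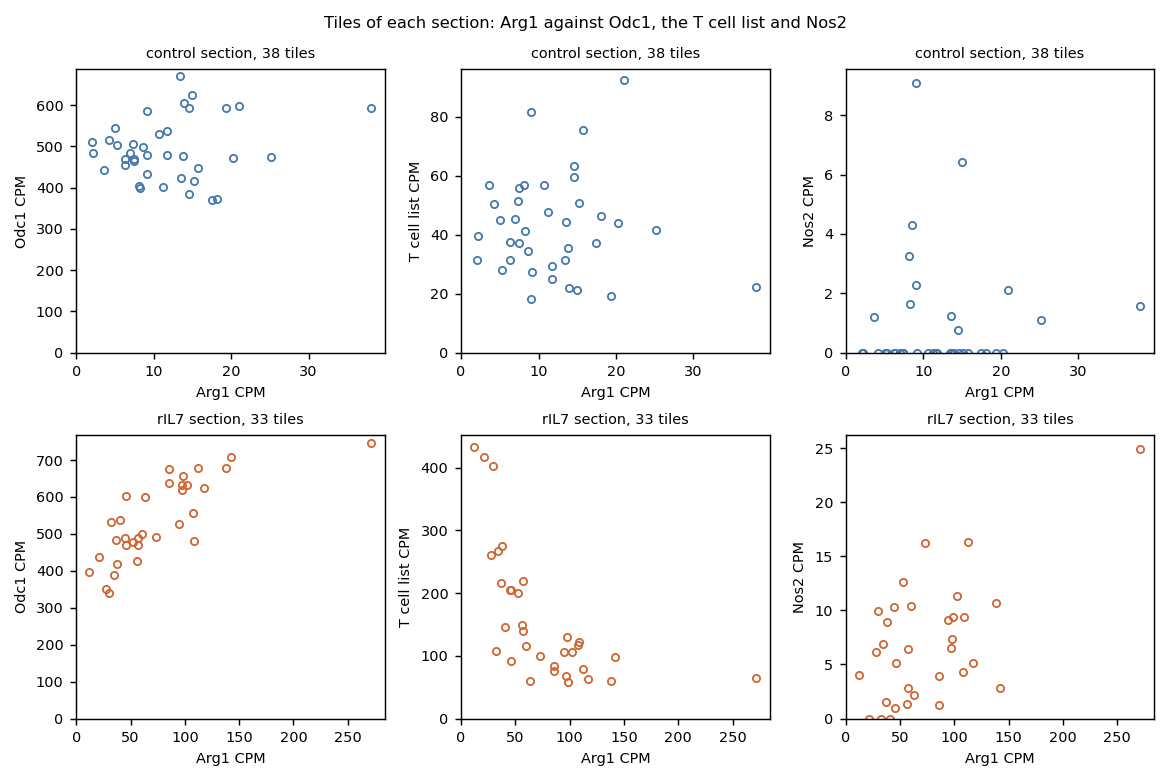
Arg1 CPM of each tile (horizontal) against Odc1, the T cell list or Nos2 (vertical, CPM), in the control (top) and rIL7 (bottom) sections, with 1 circle per tile and axes from 0. In rIL7, Odc1 is higher and the T cell list lower where Arg1 is higher, and 1 tile stands far to the right at 271 CPM of Arg1.

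Most other genes of arginine, nitric oxide and polyamine metabolism were at like levels in both sections. Of 43 listed genes, 42 were in the matrix, 35 had at least 100 UMIs, 1 was at least 1.5-fold higher with an interval above 1 (background 4.79%) and 2 were as much lower (background 3.17%). The median log2 ratio was -0.11, beside -0.003 for all genes tested. Azin2, an antizyme inhibitor that protects ornithine decarboxylase, was 1.75-fold (1.35 to 2.27) higher. Ddah1, which breaks down methylarginine inhibitors of nitric oxide synthase, stood at 0.551 (0.473 to 0.641), and Pycr1, a step of proline synthesis, at 0.648 (0.458 to 0.912). Slc7a1, the other main arginine carrier, had 922 and 975 UMIs and a ratio of 0.943 (0.861 to 1.03). Asl, which completes the route that Ass1 begins, was at 0.784 (0.726 to 0.846), and its quadrants lay below those of the control. Gch1, which supplies the cofactor of Nos2, was at 0.943 (0.877 to 1.01), and Nos3, the endothelial synthase, at 0.752 (0.610 to 0.926). Of polyamine genes beyond Odc1, spermidine synthase (Srm) was at 0.882 (0.846 to 0.919) and Smox, which oxidizes spermine, at 1.21 (1.13 to 1.30). Otc and Nags of the urea cycle had 0 UMIs in both sections.

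Genes known to induce Nos2 or Arg1 were mixed, and the shares to read their counts against are those of all genes past the same size, 4.79% higher and 3.17% lower. Of 11 inducers of Nos2 tested, 3 were at least 1.5-fold higher: Ifng (2.39-fold, 1.73 to 3.34), Irf8 (1.92, 1.77 to 2.10) and Irf1 (1.78, 1.70 to 1.86). Tnf, with a ratio of 1.09 (0.890 to 1.34), and the receptors Tlr2 and Tlr4 did not differ by that much. Of 8 inducers of Arg1 tested, Hif1a was 1.55-fold (1.44 to 1.66) higher, and Cebpb, at 0.605 (0.580 to 0.631), and Tgfb1, at 0.581 (0.529 to 0.639), were lower. Markers of classical activation reached that size for 3 of 8, Cxcl9 (3.01-fold), Il6 (1.87) and Ptgs2 (1.72), and 0 were as much lower. Markers of alternative activation reached it for 6 of 8, among them Ccl22 (8.86-fold, 5.10 to 16.6), which with 14 control and 139 rIL7 UMIs reached the minimum through rIL7, Mgl2 (3.31), Clec10a (3.18) and Cd163 (2.36). Ccl24, also among the 6, reached the minimum in the same way, with 46 control and 106 rIL7 UMIs.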

How the data were processed

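The authors captured RNA of both sections with the Visium 3' chemistry and counted genes per spot with Space Ranger 1.1.0 against mm10 (GRCm38). The deposited matrices hold raw UMI counts, and the deposited spot barcodes, gene symbols and array positions were used as given. Image scale factors were not used. The columns of per-sample values left out numbered 0.

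Spots over tissue with under 10% mitochondrial UMIs and more than 200 genes were kept, as in the methods of the study, which removed 2 control spots and 1 rIL7 spot. The UMIs of a gene over all kept spots were scaled to 1000000 UMIs of the section (CPM). Intervals at 95% are exact Poisson for levels and exact binomial (Clopper-Pearson) for shares and ratios. Spread between animals, sections and libraries is not in them. Edge spots (401 in the control, 330 in rIL7) lay within 2 grid steps of the outline of the main piece of tissue, and 12 and 21 spots outside that piece were left out there. Thinned shares were computed exactly as expectations, so spot numbers behind them need not be whole. Their intervals take these expected numbers as if observed and are a rough guide. A list ratio is that of summed UMIs. Genes of at least 100 UMIs over both sections were read across the transcriptome.

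The members, lists and rules were chosen with earlier results of these data known. Named genes were the members, up to 4 of largest log2 ratio per list past 1.5-fold, list genes where a list is reported, and genes of extreme rho with Arg1 or Nos2 over tiles. Il33 and other tile genes followed that rule. From the list of inducers of Nos2, 1 gene is not reported here and was left out of its sums and counts. The lists hold 2 symbols that found no match, Pycr3 and Ca9, and Mrc1 and Chil3 stand in more than 1 list. Coordinates come from RefSeq for GRCm38. Python 3.11.15, scipy 1.17.1 and R 4.3.3 were used, and edgeR 4.0.16 and DESeq2 1.42.0 gave scaling factors for alternatives and no test. Ratio intervals were tested on simulated data. Alternatives covered spot filters, scaling, spot weights, area, edge width, thinning, tile size and minimum level. Those without the group of 40 Arg1-rich spots, with spots of at least 15000 UMIs and with interior tiles were added after seeing the data.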

Additional observations from a re-analysis of the deposited data

Results flagged for a closer look

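For 3 of the 6 genes the edge and interior stood in opposite order in the sections. The share of all genes that did so was not computed, so this count has no scale. Arg1 had an edge over interior ratio of 0.620 in rIL7 and 1.102 in the control, Nos2 one of 1.41 in rIL7 and 0.823 in the control, and Arg2 one of 2.05 in rIL7 and 0.755 in the control. The interval left out 1 for Arg1 and Arg2 in rIL7 and for none of the 3 genes in the control. For Nos2 the opposite order rested on 3 control edge UMIs and was lost with an edge of 1 step, where its log2 ratio was 0.20 in the control and 0.69 in rIL7. With that edge the control log2 ratio of Arg1 went from 0.14 to 0.009, close to an even level. That of Arg2 went from -0.41 to -0.37. The difference between the sections was not tested, since each group has 1 section.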

How the results depend on the processing

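No paired analysis was possible because each group holds 1 sample. Over all alternatives run, the section log2 ratio ran from 2.08 to 2.90 for Arg1 and from 2.81 to 3.81 for Nos2. The section log2 ratio of Odc1 turned from 0.22 to -0.30 with edge spots only and was 0.30 with interior spots only and 0.14 with spots weighted equally. Edge spots only gave 2.08 for Arg1 and 2.11 for Arg2, equal weights gave 0.57 for Arg2, and leaving out the largest group of Arg1-rich spots gave 2.55 for Arg1. The edge over interior log2 ratio in rIL7, -0.69 for Arg1 and -0.65 for Odc1, was -0.99 (Arg1) and -0.56 (Odc1) with an edge of 4 steps, -0.91 for Arg1 with equal weights and -0.53 for Odc1 with an edge of 1 step. Shares of spots moved with depth by construction. Without thinning they were 11.1% (control) and 51.7% (rIL7) for Arg1, 0.811% and 7.54% for Nos2, 66.7% for rIL7 Nos2 spots with Arg1 and 94.6% with Arg1 in or next to the spot. At 3000 UMIs they were 3.52% and 18.9% for Arg1, 1.87% for Nos2 in rIL7 and 27.9% for its overlap. At least 2 Arg1 UMIs gave 1.44% and 24.6%, and 0% of 18 control Nos2 spots (up to 18.5%). Pathway genes past 1.5-fold numbered 0 higher and 0 lower at 20 CPM or more, where fewer genes were tested, and 1 lower in the interior. The ratio of the CT26 tumor list between rIL7 spots with and without Arg1 went from 0.040 to -0.0204 (log2) in the interior, that of the classical activation list in Arg1-rich spots from -0.16 to 0.14, and rho of Zfp12 with Arg1 in the control from 0.49 to -0.0047 over single spots. Of the 25 values of rho for named genes, 15 moved by over 0.1 with smaller tiles and 24 over single spots without a change of sign. For these shifts other than those of depth, the cause was not tested. Leaving out, for each gene, the 1% of spots with most of its own UMIs could give no value for Nos2 and Slc7a2, whose control UMIs lie in 18 and 8 spots, fewer than that 1%. Few UMIs limit Nos2 and Slc7a2 in the control.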

Other observations

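Markers of neutrophils differed unevenly between the sections. Of 9 neutrophil genes tested, 5 were at least 1.5-fold higher in rIL7, where 4.79% of all genes tested were, among them Mmp9 (2.83-fold, 2.64 to 3.03), G0s2 (3.15-fold, 2.40 to 4.17) and the calprotectin subunit S100a8 (1.96-fold, 1.79 to 2.14). Cxcr2, a chemokine receptor of mature neutrophils, had 80 and 89 UMIs, a ratio of 0.992 (0.725 to 1.36), and the decoy receptor Il1r2 a ratio of 0.733 (0.633 to 0.848). Within the hypoxia list, 2 of 8 genes tested reached that size against the same 4.79%, Adm (2.45-fold, 1.72 to 3.55) and Ndrg1 (1.58-fold, 1.51 to 1.64). Ldha, at 1.01, did not. Adm, with 44 control and 121 rIL7 UMIs, reached the minimum for testing through rIL7, so its place in that count leans on its higher section.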
